A study of Mus musculus with 22 samples.

Results

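The abundant genes described here, measured in sections of mouse embryos at E10, are *Eno1/b*, *Hsp90ab1*, *Fau*, *Btf3*, *Vim* and *Tubb5*, 6 of the 998 genes measured. They were chosen by their measured rates, since each had a larger share of the transcripts in sections labelled Knockout than in sections labelled Wildtype, so that difference is given below as a description, with no test, and supports nothing further. Transcripts were imaged in place with CosMx, a spatial method in which barcoded probes are read in segmented cells, and 37570 cells of 22 sections were used. The 13 sections labelled Knockout came from 1 embryo described as *Nr4a1-/-Nr4a2-/-*, which lacks both copies of the genes of these orphan nuclear receptors, and the 9 sections labelled Wildtype came from 1 embryo described as *Nr4a1+/+Nr4a2+/+*. The study asked what these receptors do while blood stem cells arise from the endothelium of the dorsal aorta.

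The knockout strains had been crossed back to C57BL/6J, *Nr4a1* was disrupted by the tm1Jmi allele, and both genes were inactivated in the germline, so every cell of that embryo carried the mutations. Neither embryo received a treatment. Sections of an embryo are repeated measurements of that embryo, so each p-value measures the spread between sections and not between animals. The sections of each genotype also lay on slides of their own, so slide and genotype cannot be told apart. Within a genotype the sections fall into 2 numbered sets, which are likely slides. Set 1 held 7 sections labelled Knockout and 4 labelled Wildtype, and set 2 held 6 and 5. Sections labelled Knockout carry the numbers 1 to 13 and those labelled Wildtype 14 to 22. For its analysis the study's text counts more *Nr4a1+/+Nr4a2+/+* sections and fewer *Nr4a1-/-Nr4a2-/-* sections than the labels give. The labels were followed here.

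The members belong to the basic machinery of the cell. Enolase 1 carries out a late step of glycolysis, and the *Eno1/b* probe reads *Eno1* together with its close copy *Eno1b*. *Hsp90ab1* encodes the constitutive cytosolic HSP90 chaperone, which helps kinases and nuclear receptors to fold. *Fau* encodes a ubiquitin-like protein fused to a protein of the small ribosomal subunit, and *Btf3* the beta subunit of the complex that meets new chains at the ribosome exit. *Vim* encodes vimentin, the intermediate filament of mesenchymal and endothelial cells, and *Tubb5* a beta-tubulin of the microtubules, abundant in dividing and neural cells of the embryo.

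Depth overlapped between the labels. A section held 814 to 3430 cells and 169027 to 887896 transcripts, and the median number of transcripts per cell lay between 87 and 332 in the sections labelled Knockout and between 171 and 224 in those labelled Wildtype. The targeted genes did not separate the labels. *Nr4a1* had 1.74 to 2.65 transcripts per 10000 in the sections labelled Knockout (median 2.25) against 2.29 to 3.20 (median 2.72), and the edgeR log2 difference was -0.05 (adjusted p = 0.716). For *Nr4a2* the rates were 3.08 to 5.09 against 3.37 to 6.13, with a log2 difference of 0.03 (adjusted p = 0.860 in edgeR). By the log2 ratio of the mean rates, without the scaling of the fit, the differences were -0.30 for *Nr4a1* and -0.23 for *Nr4a2*. The mean rates, 2.24 and 2.77 for *Nr4a1* and 4.17 and 4.89 for *Nr4a2*, were not above those of 30 genes that an E10 embryo should hardly express, which averaged 2.74 (*Gcg*) to 7.76 (*Ms4a1*) each. Neither gene thus stood above the rates of these probes under either label, and whether the probes lie outside the disrupted parts was not tested, so the counts do not check the labels.

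Levels are given as transcripts of a gene per 10000 transcripts of all genes in the same cells. Probes differ in number and brightness, so the order of counts between genes is not an order of expression. By mean rate alone the members, in the sections labelled Knockout, held ranks 3 to 45 of the 998 genes. In those labelled Wildtype they held ranks 5 to 92, with *Hsp90ab1* the highest and *Btf3* the lowest under both labels. By the log2 ratio of the mean section rates of the labelled groups they held ranks 1, 2, 3, 4, 6 and 7. *Sox2* stood among them at rank 5 with 0.81, and the genes just after them were *Eif5a* with 0.74, *Sox9* with 0.72 and *Hsp90aa1* with 0.68. *Fau* (0.80) and *Tubb5* (0.75) were the members with the smallest ratios.

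Together the 6 members made up 4.42% to 7.55% of the transcripts in the sections labelled Knockout, with a mean of 6.12% ± 0.889 (SD, n = 13), and 1.84% to 4.21% in those labelled Wildtype, with a mean of 3.15% ± 0.686 (SD, n = 9). No section labelled Wildtype reached the lowest section labelled Knockout. *Hsp90ab1*, *Tubb5* and *Vim* were the members whose sections did not overlap between the labels, among 5 genes higher in Knockout without overlap (0.501%), with *Arf1* and *Hsp90b1* as the others. A further 38 genes (3.81%) were lower without overlap. Without section 14, 9 of the 998 genes were higher without overlap, 5 of them members. Without section 13 there were 7 and without section 17 there were 5, with 3 members in each case. The separation rests on the scale: in transcripts per cell *Hsp90ab1*, *Vim* and *Tubb5* overlapped, with 12, 11 and 9 of 13 sections labelled Knockout above the highest labelled Wildtype, and *Btf3* did not overlap.

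**Figure D1:**
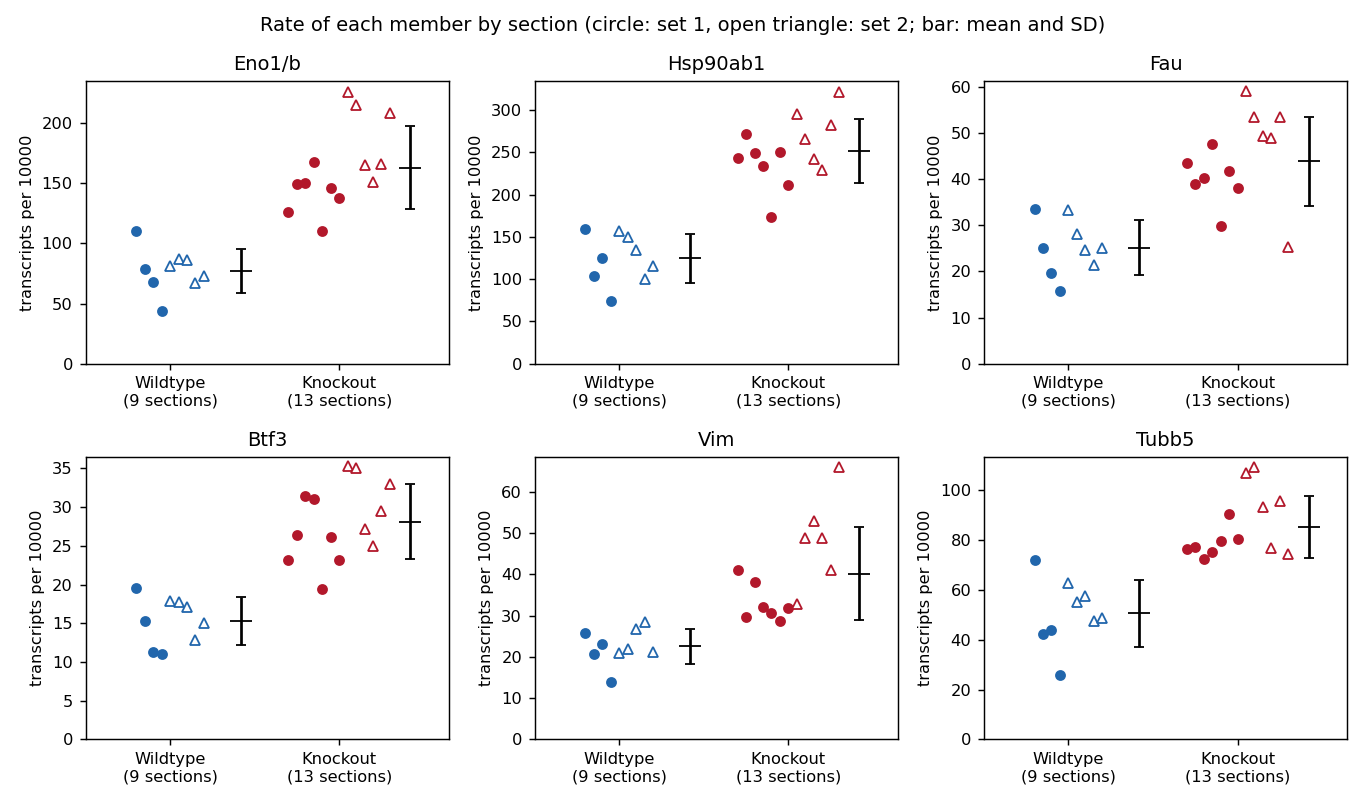
Transcripts per 10000 of each member in each of the 22 sections, 1 panel per gene, with sections labelled Knockout and Wildtype in separate columns, set 1 and set 2 in different marks, and bars at the group mean with the SD. Section 17 is the lowest Wildtype point in every panel, and the lowest Knockout points of *Eno1/b*, *Fau* and *Btf3* lie at or below the highest Wildtype point.

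*Eno1/b* had 110 transcripts per 10000 in the lowest section labelled Knockout, 151 in the median and 226 in the highest. In the sections labelled Wildtype it had 43.6, 78.5 and 110.0. The groups met at 1 pair of sections only, section 5 at 109.9 and section 14 at 110.0, and 12 of 13 sections labelled Knockout lay above every section labelled Wildtype. The means were 163 ± 34.6 (SD, n = 13) and 77.1 ± 18.03 (SD, n = 9), a 2.11-fold ratio, and per cell they were 4.30 ± 1.53 and 2.01 ± 0.510 transcripts.

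*Hsp90ab1* ran from 173 through a median of 250 to 322 per 10000 in the sections labelled Knockout. It ran from 74.3 through 125 to 160 in those labelled Wildtype. The chaperone gene thus had no overlap, and its means of 252 ± 37.8 and 125 ± 28.8 stood in a 2.02-fold ratio. Its lowest Knockout value was again in section 5 and its highest in section 13.

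The genes of translation followed. *Fau* had 25.3, 43.4 and 59.1 transcripts per 10000 as the lowest, median and highest section labelled Knockout, and 15.8, 25.02 and 33.6 in those labelled Wildtype. Sections 5 and 13, at 29.9 and 25.3, lay within the Wildtype range. Section 13 had the lowest *Fau* value of its label but the highest of *Hsp90ab1* and *Vim*. The means were 43.8 ± 9.59 and 25.2 ± 5.89, a 1.74-fold ratio. *Btf3* had 19.5, 27.1 and 35.3 against 10.96, 15.3 and 19.5, and 12 of 13 sections labelled Knockout lay above the highest labelled Wildtype. Its means of 28.1 ± 4.88 and 15.3 ± 3.06 gave a 1.84-fold ratio.

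The cytoskeletal members came close to meeting without overlap. *Vim* had 28.8, 38.0 and 65.9 transcripts per 10000 in the sections labelled Knockout and 13.9, 21.9 and 28.4 in those labelled Wildtype, so the groups were parted by less than 1 transcript per 10000. Its means were 40.2 ± 11.2 and 22.5 ± 4.27, a 1.78-fold ratio. *Tubb5* had 72.1, 79.4 and 109 against 25.9, 48.6 and 72.0, with the lowest Knockout value in section 3 and the highest Wildtype value in section 14. Its means were 85.1 ± 12.6 and 50.5 ± 13.3, a 1.68-fold ratio. Section 17 had the lowest value of its label for all 6 members, and without it the log2 difference of the mean log2 rates fell from 1.09 to 0.99 for *Eno1/b*, from 1.04 to 0.95 for *Hsp90ab1*, from 0.80 to 0.72 for *Fau*, from 0.89 to 0.83 for *Btf3*, from 0.81 to 0.73 for *Vim* and from 0.79 to 0.68 for *Tubb5*.

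Promoters of the 5 members other than *Hsp90ab1* were taken from RefSeq (GRCm38.p6), in which *Eno1* starts at position 150236708 of chromosome 4, *Fau* at 6057947 of chromosome 19, *Btf3* at 98317006 of chromosome 13 on the minus strand, *Vim* at 13574311 of chromosome 2 and *Tubb5* at 35838301 of chromosome 17 on the minus strand. The promoter set used held no entry for *Hsp90ab1*, so that gene was not searched. To describe the letters near these starts, 6 short motifs were searched on both strands in windows of 250 bases before and 50 after the start. The motif CCATCTT (reverse AAGATGG), that of the factor YY1, was found for both genes of translation, *Fau* and *Btf3*, and is held by 6.34% of the 32851 promoters searched. CCAAT (reverse ATTGG) was found for *Eno1*, *Vim* and *Tubb5* and is held by 37.4%, and GGGCGG (reverse CCGCCC) for *Fau* and *Tubb5* and is held by 35.7%. The E-box CACGTG was found for *Tubb5* (7.15% of all), TATAAA (reverse TTTATA) for *Vim* (13.6%), and the heat shock unit GAANNTTC for none of the 5 (7.86%). *Eno1* and *Btf3*, the pair most alike across sections below, shared none of the 6. The matches are a description of letters and not of bound sites. The promoters of 3 genes are shown from 100 bases before to 50 after the start, the *Fau* and *Btf3* pair for the shared motif and *Vim* because it departed from the other members among the cell classes below. Capitals mark the motifs named above.
*Btf3*, chr13:98316957-98317106, minus strand: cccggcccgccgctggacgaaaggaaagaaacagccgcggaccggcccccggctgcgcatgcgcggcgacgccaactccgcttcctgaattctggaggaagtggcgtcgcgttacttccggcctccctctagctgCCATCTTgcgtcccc
*Fau*, chr19:6057847-6057996, plus strand: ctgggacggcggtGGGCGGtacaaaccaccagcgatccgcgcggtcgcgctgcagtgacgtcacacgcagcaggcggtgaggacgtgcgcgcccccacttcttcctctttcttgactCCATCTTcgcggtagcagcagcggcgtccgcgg
*Vim*, chr2:13574211-13574360, plus strand: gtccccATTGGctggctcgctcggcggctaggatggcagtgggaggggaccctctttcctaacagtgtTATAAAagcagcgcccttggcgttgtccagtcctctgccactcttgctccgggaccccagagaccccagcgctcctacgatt

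The CCATCTT motif began at base 18 of *Fau* and at base 36 of *Btf3*, counted from the start as base 1, both inside the transcribed part, and the TATAAA of *Vim* began 32 bases before its start. *Fau* held CCATCTT a second time, at position -214. The first listed start of each gene was used. The other listed start of *Btf3* had CCATCTT at position -4, and those of *Eno1* had GGGCGG as well as CCAAT.

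To see in which cells the members were measured, cells were gated by the counts of other genes: 1201 cells had at least 3 *Cdh5* transcripts, in 1734 at least 10% of the transcripts were hemoglobin, 995 had at least 4 of *Tagln* and *Acta2* together, 3895 had at least 4 of *Twist1*, and 28908 passed no gate. The 837 cells that passed several gates were left out. The *Cdh5* gate raised 5 of 5 other endothelial markers at least 2-fold over the remaining cells in the sections labelled Knockout and 4 of 5 in those labelled Wildtype, and *Epor*, the marker of red cells outside the hemoglobin gate, had a ratio of 5.42 and 4.07 in hemoglobin-gated cells. The hemoglobin probe *Hba-a1/2* had a ratio of 2.47 and 1.72 in *Cdh5*-gated cells, and the part of this in the contrasts below was not tested. The *Tagln/Acta2* gate raised 2 of 4 other smooth muscle markers, and 2 of 7 mesenchyme markers, in both. The *Twist1* gate raised 0 of 6 other mesenchyme markers and is therefore called only by its gene. The gates select deeper cells, with median totals of 416, 246, 490 and 442 transcripts against 146 in the other cells, so each contrast was also fitted against other cells matched on their total. Contrasts were taken within sections in edgeR over all 998 genes. The members were chosen on the difference between labels, but these gates and the total per cell were named with that choice. The contrasts, here and by depth, are therefore no independent support for it.

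*Vim* parted from the other members in *Cdh5*-gated cells. In *Cdh5*-gated cells *Vim* had 49.4, 73.0 and 108 transcripts per 10000 as the lowest, median and highest section labelled Knockout and 24.97, 44.5 and 50.3 in those labelled Wildtype, and it exceeded the level of the other cells in 21 of 21 sections. The log2 difference from other cells was 1.09 ± 0.05 (SE, edgeR adjusted p = 1.43e-37) and 1.28 against matched cells (adjusted p = 2.16e-38). *Eno1/b* was lower at -0.29 ± 0.04 (edgeR adjusted p = 7.05e-09) in 20 of 21 sections, and at -0.16 against matched cells (adjusted p = 0.0341). *Fau* (-0.17, adjusted p = 0.00987), *Btf3* (-0.20, adjusted p = 0.0151) and *Tubb5* (-0.17, adjusted p = 0.00247) passed the edgeR threshold against all other cells but not against matched cells, where their log2 differences were -0.05, 0.032 and -0.04. *Hsp90ab1* had a log2 difference of -0.07 (adjusted p = 0.258 in edgeR), and 0.065 against matched cells (adjusted p = 0.497). In all 5 members were called, where 20.3% of all genes were called in either direction.

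In *Tagln/Acta2*-gated cells *Vim* was again the member that was higher. *Vim* had 57.2, 65.7 and 110 per 10000 as the lowest, median and highest section labelled Knockout and 31.5, 38.2 and 48.1 in those labelled Wildtype. It was higher than in other cells in 19 of 19 sections, by 1.05 ± 0.08 on the log2 scale (edgeR adjusted p = 1.12e-19) and by 1.17 against matched cells (adjusted p = 3.22e-18). *Hsp90ab1* (-0.26, adjusted p = 0.0127 in edgeR) and *Tubb5* (-0.22, adjusted p = 0.0428) were called lower against all other cells, but their differences from matched cells were -0.06 and -0.07 (adjusted p = 0.815 and 0.799), and *Tubb5* also missed the threshold without section 13 (-0.21, adjusted p = 0.0750). *Eno1/b* (-0.25), *Fau* (-0.20) and *Btf3* (-0.18) were not called. Of the 6 members 3 were called, against 12.9% of all genes in either direction.

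In *Twist1*-gated cells *Vim* was lower and the other members were higher. *Eno1/b* had 151, 200 and 267 per 10000 as the lowest, median and highest section labelled Knockout and 80.5, 112 and 144 in those labelled Wildtype, and it was higher than in other cells in 21 of 21 sections, by 0.40 ± 0.05 (SE, edgeR adjusted p = 2.57e-10). *Hsp90ab1* (0.28), *Fau* (0.31), *Btf3* (0.27) and *Tubb5* (0.34) were higher too, with adjusted p from 1.27e-06 to 3.10e-05 in edgeR. Against matched cells these 5 differences were larger, between 0.44 and 0.55. In the sections labelled Knockout alone *Tubb5* had a difference of 0.17 (adjusted p = 0.0636 in edgeR) and in those labelled Wildtype alone 0.59 (adjusted p = 6.79e-11), and whether these differ was not tested. *Vim* was lower, at 17.02, 21.8 and 29.4 per 10000 in the sections labelled Knockout and 13.4, 16.5 and 20.3 in those labelled Wildtype, a log2 difference of -0.61 ± 0.07 (edgeR adjusted p = 1.04e-07), lower in 20 of 21 sections. The *Vim* difference was -0.80 in the sections labelled Knockout and -0.26 in those labelled Wildtype, and whether these differ was not tested. All 6 members were called, against 12.2% of all genes in either direction. *Twist1*-gated cells made up 12.9% of the cells labelled Knockout and 7.14% of those labelled Wildtype, and the part of this in the summed rates was not tested.

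Hemoglobin-gated cells had a smaller share of all the members. *Eno1/b* had 28.1, 39.2 and 109 per 10000 as the lowest, median and highest section labelled Knockout and 18.8, 30.04 and 53.4 in those labelled Wildtype. It was lower than in other cells in 22 of 22 sections, at -1.44 ± 0.10 on the log2 scale (edgeR adjusted p = 1.16e-20) and at -1.40 against matched cells (adjusted p = 2.88e-25). *Tubb5* (-0.94, edgeR adjusted p = 1.47e-15) and *Hsp90ab1* (-0.84, adjusted p = 4.57e-13) were also lower in 22 of 22 sections. *Vim* was lower at -0.67 (edgeR adjusted p = 3.27e-05), though in the sections labelled Wildtype alone its difference was -0.31 (adjusted p = 0.131). *Btf3* was lower at -0.42 (edgeR adjusted p = 6.18e-05) and *Fau* at -0.30 (adjusted p = 0.00438), which over both labels are the smallest differences of the 6. *Fau* did not pass against matched cells (-0.16, adjusted p = 0.242), in the sections labelled Wildtype alone (-0.29, adjusted p = 0.159) or with members and hemoglobin left out of the library sizes (-0.18, adjusted p = 0.0552). With stricter gates neither *Fau* (-0.082, adjusted p = 0.713) nor *Btf3* (-0.19, adjusted p = 0.338) passed. All 6 were called lower, where 18.9% of all genes were called lower and 41.8% in either direction. Hemoglobin made up a mean of 25.8% of the transcripts of these cells in the sections labelled Knockout and 15.1% in those labelled Wildtype. Per 10000 transcripts other than hemoglobin *Eno1/b* still had 68.0 ± 35.9 (SD, n = 13) and 39.6 ± 14.6 (SD, n = 9) in gated cells against 170 ± 32.5 and 78.9 ± 16.5 in other cells. On the same scale *Fau* had 42.2 ± 14.4 and 22.8 ± 7.61 in gated cells against 44.9 ± 9.23 and 25.5 ± 5.25 in other cells. *Btf3* had 25.9 ± 8.74 and 12.4 ± 4.32 against 28.8 ± 4.38 and 15.8 ± 2.76. Differences on this scale were not tested.

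**Figure D2:**
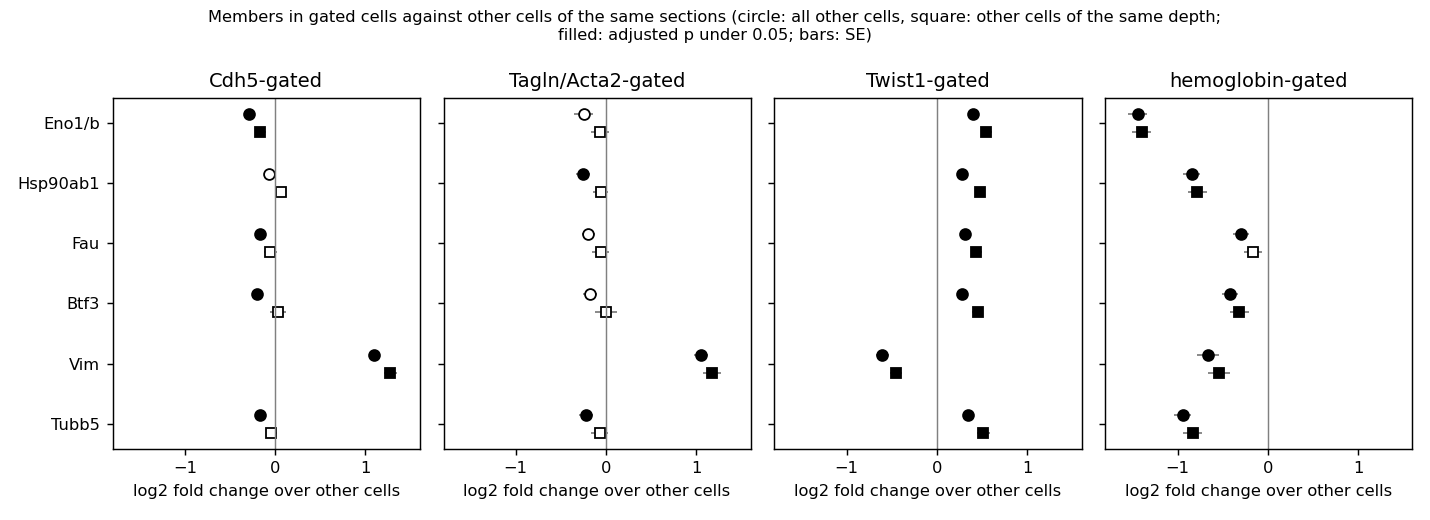
Log2 difference of each member between each gated class and the other cells of the same sections, with bars of 1 SE from edgeR, against all other cells (circles) and against other cells matched on total count (squares), filled where the adjusted p was under 0.05. *Vim* is at or above 1.05 in *Cdh5*-gated and *Tagln/Acta2*-gated cells and below 0 in *Twist1*-gated and hemoglobin-gated cells, and the remaining members are above 0 in *Twist1*-gated cells.

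Relatives of the members on the panel differed among classes as well. *Hsp90aa1*, the stress-inducible cytosolic HSP90, was lower in *Cdh5*-gated cells (-0.34, edgeR adjusted p = 1.48e-10), *Tagln/Acta2*-gated cells (-0.28, adjusted p = 0.0127) and hemoglobin-gated cells (-0.42, adjusted p = 5.64e-05), and higher in *Twist1*-gated cells (0.26, adjusted p = 1.74e-05). *Naca*, the alpha subunit that pairs with the product of *Btf3*, had log2 differences of 0.29 in *Twist1*-gated cells (adjusted p = 1.26e-06 in edgeR) and -0.51 in hemoglobin-gated cells (adjusted p = 1.11e-06), beside 0.27 and -0.42 for *Btf3*. *Tubb4b*, another beta-tubulin, was higher in hemoglobin-gated cells by 0.38 (edgeR adjusted p = 0.000141), where *Tubb5* was lower at -0.94. The endoplasmic reticulum form *Hsp90b1* was lower there at -0.93 (adjusted p = 3.06e-15 in edgeR). In *Cdh5*-gated cells *Hsp90b1* was higher by 0.14 (edgeR adjusted p = 0.00672), a call lost with library sizes alone (0.08, adjusted p = 0.155).

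The ratio between the labels was then read inside each class, as a description. It lay between 1.26-fold, for *Vim* in hemoglobin-gated cells, and 2.17-fold, for *Eno1/b* in other cells. In *Cdh5*-gated cells *Hsp90ab1* (226 ± 26.8, n = 12, against 118 ± 24.6, n = 9) and *Fau* (39.6 ± 7.64 against 20.5 ± 5.35) did not overlap between the labels, among 3 genes higher in Knockout without overlap (0.301%). In *Tagln/Acta2*-gated cells *Hsp90ab1*, *Btf3*, *Vim* and *Tubb5* were the 4 such genes (0.401%). *Eno1/b* was 1 of 2 in *Twist1*-gated cells (0.2%), at 203 ± 37.5 (SD, n = 13) against 111 ± 20.2 (SD, n = 8). In other cells *Eno1/b*, *Hsp90ab1*, *Btf3* and *Tubb5* were 4 of 9 (0.902%). Genes lower in Knockout without overlap numbered 1, 0, 1 and 25 in these 4 classes. In hemoglobin-gated cells every member overlapped, as did all 998 genes (0%). *Tubb5* had its smallest ratio in *Twist1*-gated cells, 1.27-fold, with 96.4 ± 14.1 against 75.6 ± 15.9. Pooled over sections, the highest class exceeded the lowest by 4.48 times for *Eno1/b* and 4.58 times for *Vim* in the sections labelled Knockout, and by 1.76 to 2.73 times for the other members. In the sections labelled Wildtype it did so by 3.60 times for *Eno1/b*, 3.22 times for *Tubb5*, 2.71 times for *Vim* and 1.87 to 2.58 times for the others.

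**Figure D3:**
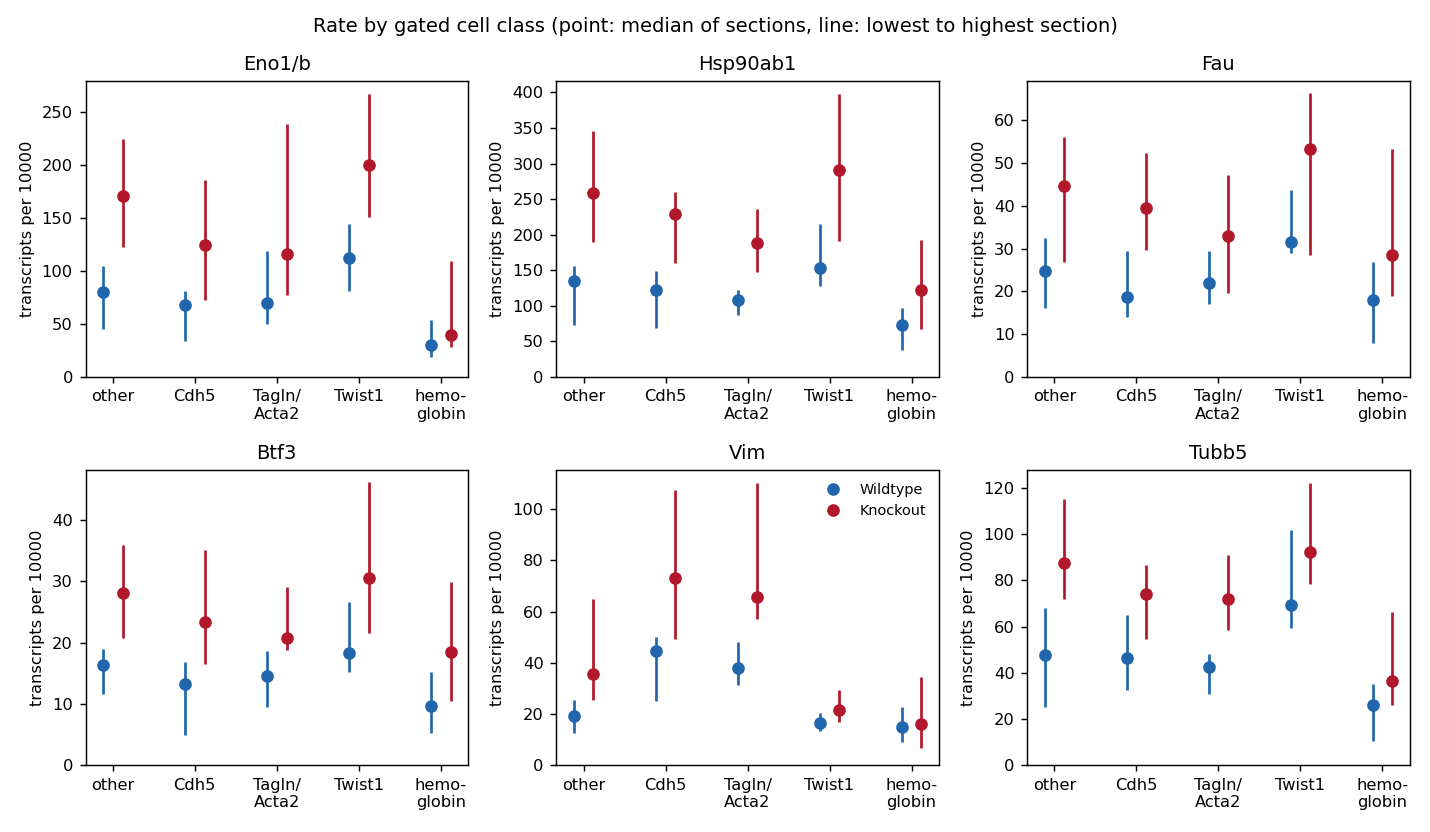
Transcripts per 10000 of each member in the 5 cell classes, 1 panel per gene, with a point at the median of the sections labelled Knockout or Wildtype and a line from the lowest to the highest section. Knockout medians lie above Wildtype medians in every class, and hemoglobin-gated cells have the lowest median for every member under both labels.

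The members' shares of the transcripts were lower in cells with more transcripts. For *Eno1/b* the mean rate over sections labelled Knockout was 232, 185, 155 and 155 per 10000 in cells with under 100, 100 to under 200, 200 to under 400 and at least 400 transcripts, and 108, 89.9, 77.6 and 71.3 over those labelled Wildtype. *Hsp90ab1* went from 372 to 235 and from 190 to 114, and *Btf3* from 45.4 to 25.7 and from 21.2 to 14.6. In edgeR, cells with at least 200 transcripts had a smaller share of all 6 members than shallower cells of their section. The log2 differences were -0.62 (*Hsp90ab1*), -0.61 (*Btf3*), -0.58 (*Eno1/b*), -0.56 (*Tubb5*), -0.48 (*Fau*) and -0.45 (*Vim*), with edgeR adjusted p from 3.93e-20 to 3.16e-08. Beside this, 18.1% of all genes were called lower and 32.1% in either direction. *Vim* in the sections labelled Wildtype had 25.4, 22.7, 21.6 and 22.9 per 10000, lower in each of the first steps and higher in the last. The ratio between the labels stayed between 1.62-fold and 2.19-fold in all 4 bins for the 6 members, and the bins held like shares of the cells, 32.7% and 30.9% in the shallowest and 24.4% and 23.6% in the deepest.

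**Figure D4:**
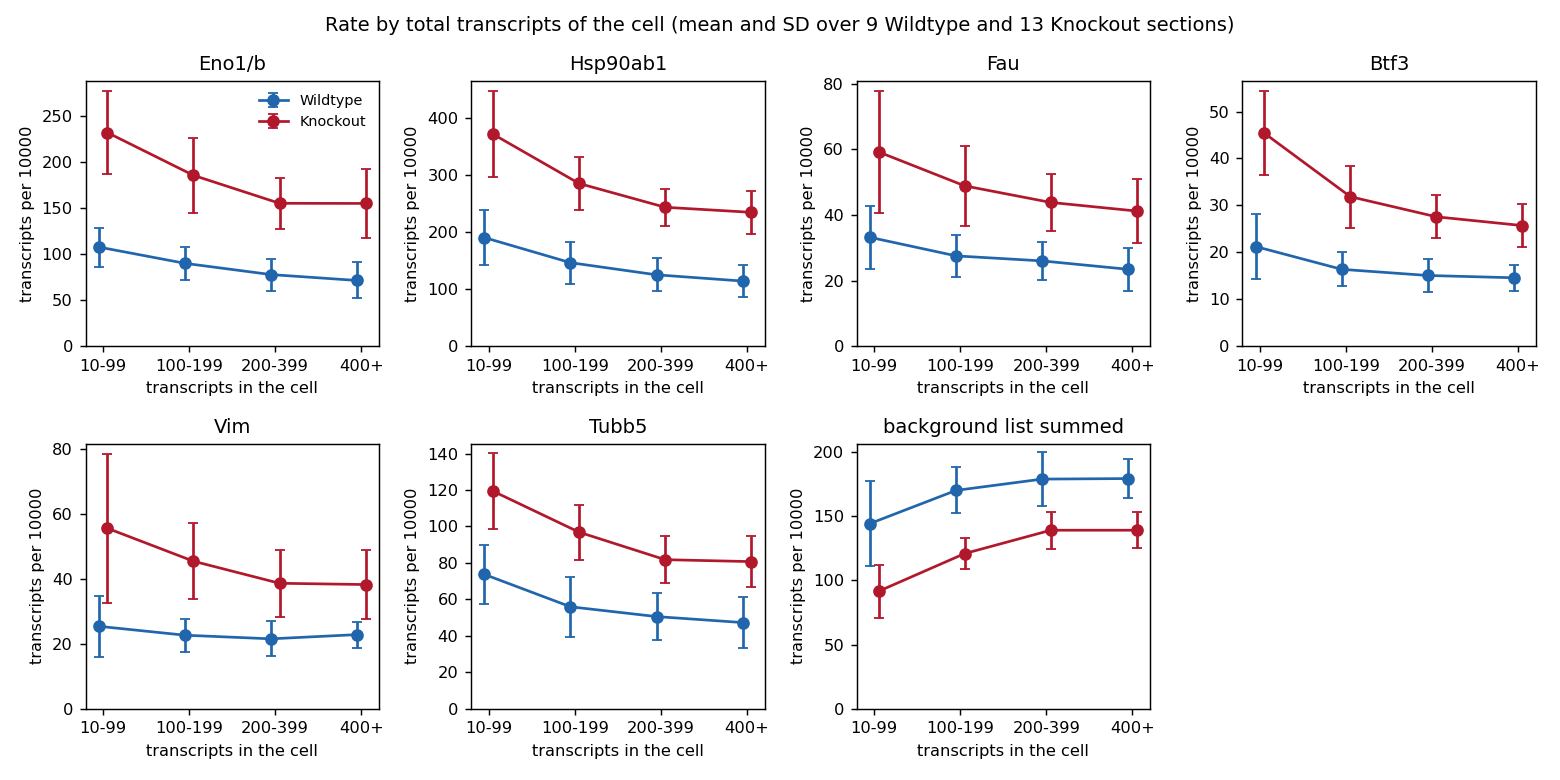
Mean transcripts per 10000 of each member and of the summed list of genes little expressed in an E10 embryo, with the SD over sections, in 4 bins of the total count per cell (under 100, 100 to under 200, 200 to under 400, 400 or more), for sections labelled Knockout and Wildtype. Each member was higher in the shallowest bin than in the deepest under both labels with the Knockout line above the Wildtype line in each bin, and the list ran the other way in both respects.

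Cells were also gated by genes of mitosis. Cells with at least 2 transcripts of 8 genes of mitosis, among them *Mki67* and *Top2a*, had a smaller share of all 6 members than cells with none. The log2 differences in edgeR ran from -0.26 (*Fau* and *Tubb5*) to -0.40 (*Btf3*), with adjusted p from 6.97e-09 to 0.000136. Of all genes 11.5% were called lower and 18% in either direction. With at least 50 transcripts per cell 5 of the 6 calls were lost, and *Vim* remained (-0.27, adjusted p = 0.000246 in edgeR). Without this limit *Vim* had -0.50 in the sections labelled Knockout alone (edgeR adjusted p = 1.21e-08). In those labelled Wildtype alone it was not called (-0.20, edgeR adjusted p = 0.215). The gate took 23723 of 37570 cells and followed depth, with a median total of 319 transcripts in the gated cells and 41 in the others, so it does not show that a cell was dividing. Per gene the 8 genes averaged 19.7 and 18.3 transcripts per 10000 in the sections labelled Knockout and Wildtype, beside 4.47 and 5.89 for 30 genes that an E10 embryo should hardly express, and the part of such background counts in the gate was not tested. Matching on total within sections kept 4244 of the gated cells, with median totals of 87 and 84 in the pairs. In these pairs *Hsp90ab1* (0.40, edgeR adjusted p = 1.43e-12), *Tubb5* (0.40, adjusted p = 2.66e-08), *Eno1/b* (0.37, adjusted p = 5.40e-08), *Btf3* (0.32, adjusted p = 0.00218) and *Fau* (0.31, adjusted p = 0.000650) were higher in the gated cells, and *Vim* had a difference of 0.13 (adjusted p = 0.442). The matching was chosen after the data were seen.

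Sections of an embryo were also compared by set. Between set 2 and set 1 of the sections labelled Knockout *Vim* had mean rates of 48.4 and 33.1 per 10000 and *Eno1/b* 188 and 141, with log2 differences of 0.65 ± 0.16 and 0.53 ± 0.18 (SE, edgeR adjusted p = 0.0551 and 0.109). The other members had differences of 0.33 to 0.38, and none of the 6 was called, where 3 of all genes were (0.301%), with 184 at an unadjusted p under 0.05. Without section 17 the number of genes called was 26 and *Vim* (adjusted p = 0.0252) and *Eno1/b* (adjusted p = 0.0414) passed, and *Vim* also passed without section 1, 8 or 14. In DESeq2, which called 55 genes, *Vim* passed with 0.65 (adjusted p = 0.00807). In the sections labelled Wildtype the members differed by 0.10 to 0.26 (edgeR adjusted p = 0.975 for each), *Eno1/b* by -0.11 without section 17, and no gene was called (0%), with 36 at an unadjusted p under 0.05 and 0 called in DESeq2. The difference between the set effects was 0.08 to 0.43 for the members and was called for no gene (0%) in edgeR, with 122 at an unadjusted p under 0.05 and 2 called in DESeq2. Without section 14 it lay between -0.26 and -0.083 for *Hsp90ab1*, *Fau*, *Btf3* and *Tubb5*. Between fields of view with at least 100 cells, over 18 sections with several such fields, the highest exceeded the lowest by a median of 1.23 times (*Vim*) to 1.46 times (*Eno1/b*), and at most by 3.26 times (*Vim*).

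A list of 30 genes that an E10 embryo should hardly express, such as *Ins1*, *Gcg* and *Ms4a1*, moved the other way. Its summed rate was 110, 134 and 154 per 10000 as the lowest, median and highest section labelled Knockout and 161, 173 and 220 in those labelled Wildtype, without overlap. The difference of the means, 134 ± 13.3 (SD, n = 13) and 177 ± 17.4 (SD, n = 9), was -42.6 (p = 2.01e-06, the smallest that the exact two-sided permutation test over 497420 splits can give). It was -39.4 within set 1 (exact permutation p = 0.00303) and -48.6 within set 2 (exact permutation p = 0.00216). Per cell it was -1.04 transcripts (exact permutation p = 0.00506). Section 17, lowest of its label for every member, had the highest value of this list. With the mean rate per gene of the list taken off each member, the log2 difference between the labels was 0.82 for *Eno1/b*, 0.74 for *Hsp90ab1*, 0.72 for *Fau*, 1.06 for *Btf3*, 0.76 for *Vim* and 0.57 for *Tubb5*, and the part of this list in the members' ratios was not tested further.

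**Figure D5:**
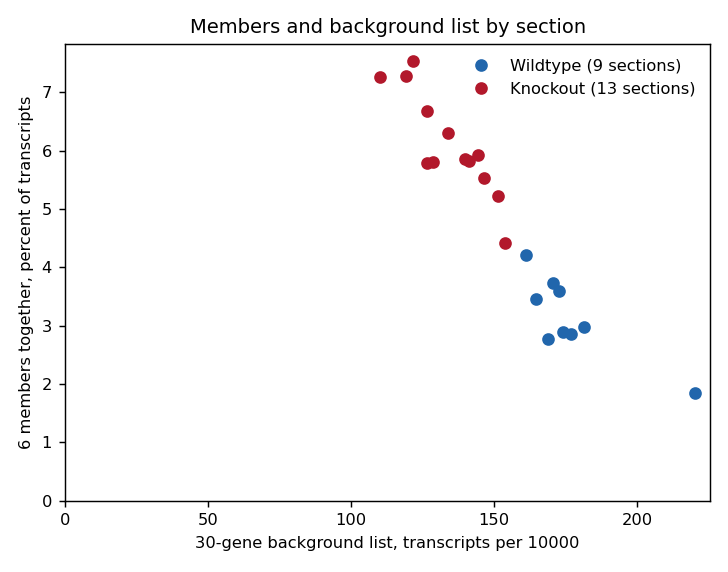
Percent of transcripts that fell on the 6 members against the summed rate of the 30 genes little expressed in an E10 embryo (transcripts per 10000), 1 point per section, coloured by label. Sections labelled Knockout lie at 4.42% or more of members and 154 or less of the list, and section 17 lies at 1.84% and 220.

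With the mean of each label taken off, the log2 rates of members were compared over the 22 sections with those of 161 genes that averaged at least 10 transcripts per 10000, as a description over sections that share their slides. The genes most like *Eno1/b* were *Eif5a* (Pearson r = 0.90), *Naca* (0.86) and *Parp1* (0.86), and those most like *Hsp90ab1* were *Parp1* (0.89), *Tpt1* (0.81) and *Eif5a* (0.80). *Fau* was most like *Pfn1* (0.91), *Ybx3* (0.87) and *Rack1* (0.87), and *Btf3* most like its partner *Naca* (0.94, and 0.93 without section 17), *Eif5a* (0.87) and *Twist1* (0.84). *Vim* was most like the basement membrane collagens *Col4a2* (0.74) and *Col4a1* (0.73) and *Tubb4b* (0.73). *Tubb5* was most like *Twist1* (0.81), *Hmgb2* (0.69) and *Stmn1* (0.67), and without section 17 these values were 0.69, 0.47 and 0.37. Among members the closest pair was *Eno1/b* and *Btf3* (0.91) and the most distant *Fau* and *Vim* (0.10, and -0.12 without section 17).

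Other panel genes of the same roles were counted between the labels, in lists drawn up with results of these data known. Median log2 differences in edgeR are given beside -0.03 for all genes, and 98 of all 998 genes were called higher (9.82%). Of 7 further genes of translation 6 were called higher (median 0.85), among them *Eif5a* at 94.3 ± 19.5 against 56.4 ± 11.4 per 10000, *Ybx3* at 13.4 ± 4.12 against 8.43 ± 1.85 and *Rack1* at 59.2 ± 15.5 against 39.2 ± 7.79. Of 11 cytoskeletal genes 9 were higher (median 0.53), such as *Stmn1*, which destabilises microtubules, at 122 ± 16.5 against 77.4 ± 16.7, *Pfn1*, which binds actin, at 56.0 ± 19.97 against 36.1 ± 7.50, and *Tubb4b* at 27.9 ± 4.55 against 22.3 ± 2.09. Of 15 general abundant genes 13 were higher (median 0.63), such as *Sod1*, *Ctnnb1* and *Atp5e*.

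The remaining lists were chaperones and metabolism. Of 10 chaperone genes 5 were called higher (median 0.30), among them *Hsp90aa1* at 119 ± 21.3 against 74.8 ± 13.2 per 10000, *Hsp90b1* at 83.1 ± 8.11 against 59.3 ± 6.08 and the collagen chaperone *Serpinh1* at 152 ± 30.7 against 114 ± 17.9. Of 9 genes of glycolysis and metabolism 3 were higher (median 0.15), namely *Ldha*, which makes lactate, at 63.7 ± 19.2 against 41.7 ± 8.17, *Glul* at 18.9 ± 2.996 against 16.2 ± 2.18 and *Glud1* at 13.3 ± 1.78 against 13.2 ± 1.41. No gene of the 5 lists was called lower. These counts rest on the scaling: with library sizes alone the median of all genes was -0.30, 4 of the 9 metabolic and 4 of the 10 chaperone genes and 1 cytoskeletal gene were called lower, and 2, 3 and 5 were called higher, while 6 genes of translation were still called higher.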

How the data were processed

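Transcripts were measured by CosMx in 10 µm sections that the methods describe as fresh frozen, with a panel of preset and custom probes. The authors segmented the cells with AtoMx and deposited counts of transcripts per gene and cell without normalization, 1 table per section. Seurat is named in the submitters' processing notes for later steps. Of 37575 cells 37570 with at least 10 transcripts of at least 10 genes were kept. The methods also left out large cells, which could not be done from the counts. No doublet caller was run, and cells of several gates were left out. All 231 pairs of sections differed. Section numbers come from the labels and set numbers from the names of the deposited tables.

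Rates are transcripts per 10000. Counts were summed per section, and per class where a section held at least 10 cells of it (at least 20 for a rate), and tested with edgeR 4.0.16 in R 4.3.3 (quasi-likelihood test, TMM, filterByExpr, Benjamini-Hochberg adjusted p under 0.05), with the section as a block in contrasts between cells. DESeq2 1.42.0, library sizes alone, library sizes without the members and hemoglobin, no filter, at least 50 transcripts per cell, single labels or sets, stricter gates, matched cells and sections left out were alternatives. Rates, exact permutation tests and plots were made with matplotlib 3.10.9, pandas 2.3.3, scipy 1.17.1 and numpy 2.4.6 under Python 3.11.15. Tested on simulated data, edgeR recovered 78% of genes changed by 0.5 (log2) and 100% of those changed by 1 in the comparison of labels over 998 genes, with 3.3% false calls. The simulated sections were independent, with as many genes raised as lowered and no effect of embryo or slide. These rates therefore do not give the share of false calls between the labels.

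The members and gene lists were chosen with earlier results of these data known. The genes named are the members, for each the 3 genes most like it across sections, the relatives Hsp90aa1, Hsp90b1, Tubb4b and Naca, at most 3 called genes per pathway list, and Nr4a1 and Nr4a2. Sox2, Sox9 and Arf1 were named after their values were seen.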

Additional observations from a re-analysis of the deposited data

Results flagged for a closer look

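In the 6 sections labelled Knockout of set 2, Fau was far lower in section 13 than in the others, at 25.3 transcripts per 10000 against a median of 51.4. Groups of 30 kinds of values were examined, and chance alone sets apart about 1 in 20 such groups. Section 13 also held only 6 Cdh5-gated cells, and it had the highest Hsp90ab1 (322) and Vim (65.9) values of its label. The cause was not tested.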

How the results depend on the processing

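No paired analysis was possible because the labels compared share no section numbers. Of the values of a member in a tested contrast under an alternative, 891 kept their direction and side of the threshold, 20 passed it newly, 46 no longer passed and 15 changed sign. Of these 8 were called neither before nor after: Hsp90ab1 in Cdh5-gated cells against matched cells (0.065) and with stricter gates (0.023), Eno1/b in Tagln/Acta2-gated cells of sections labelled Wildtype (0.0068), Eno1/b between the sets of sections labelled Wildtype (-0.11 without section 17 to 0.38 without section 14) and, for the difference of the set effects, from without section 14 to without section 17, Hsp90ab1 (-0.12 to 0.30), Fau (-0.083 to 0.36), Btf3 (-0.084 to 0.29) and Tubb5 (-0.26 to 0.30). The others were Btf3 in Cdh5-gated cells against matched cells (0.032) and, in mitosis-gated cells matched on total, Eno1/b (0.37), Hsp90ab1 (0.40), Fau (0.31), Btf3 (0.32), Vim (0.13) and Tubb5 (0.40). The 26 alternatives for the background list kept its direction and call. Of 168 differences of members between the labels 167 moved by less than the spread between sections, and Hsp90ab1 fell from 1.04 to 0.74 with the background list subtracted.

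The counts of genes called moved more. Between the labels 125 genes were called (98 higher, 27 lower), 777 with library sizes alone (58 higher, 719 lower), 689 without members and hemoglobin in the library sizes (63 higher, 626 lower) and 55 within set 1. For Cdh5-gated cells the count was 203 (111 higher, 92 lower), with library sizes alone 91 higher and 148 lower, and 101 in sections labelled Wildtype and 123 in set 1. For hemoglobin-gated cells it was 417 (228 higher, 189 lower), with library sizes alone 50 higher and 297 lower, without members and hemoglobin 403 higher and 144 lower, 149 in sections labelled Wildtype, 256 in set 1, 221 in set 2 and 188 with stricter gates. For Tagln/Acta2-gated cells it was 129 (78 higher, 51 lower), 215 with library sizes alone (49 higher, 166 lower), 250 without members and hemoglobin (48 higher, 202 lower), 40 in sections labelled Wildtype, 53 in set 1 and 69 in set 2. For Twist1-gated cells it was 122 (69 higher, 53 lower), with library sizes alone 38 higher and 112 lower, 72 in sections labelled Knockout, 64 in those labelled Wildtype, 54 in set 1 and 63 in set 2. For mitosis-gated cells it was 180 (65 higher, 115 lower), with library sizes alone 153 higher and 60 lower, 91 with at least 50 transcripts, 99 in sections labelled Knockout, 86 in those labelled Wildtype, 100 in set 1, 102 in set 2 and 62 in matched pairs. With at least 50 transcripts per cell only Vim of the members was still called there. For deep cells it was 320 (139 higher, 181 lower), 674 with library sizes alone (599 higher, 75 lower), 650 without members and hemoglobin (82 lower), 170 in sections labelled Wildtype, 200 in set 1 and 183 in set 2. Between the sets of sections labelled Knockout it was 3, and 51 with library sizes alone, 55 in DESeq2, 12 with at least 50 transcripts and 35 without members and hemoglobin. For the difference of the set effects it was 0, and 2 in DESeq2. The cause of these shifts was not tested.

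Leaving out 1 section at a time gave 104 to 161 genes called between the labels, 0 to 26 between the sets of sections labelled Knockout (26 without section 17, 14 without section 1, 12 without section 14, 11 without section 8, 10 without section 11, 0 without section 5, 6, 7 or 9), 0 between those labelled Wildtype and 0 to 3 for the difference of the set effects (3 without section 17). The contrasts between cells without section 13 or 17, the matched mitosis-gated pairs and no other alternatives were chosen after the data were seen. Matching other cells to mitosis-gated cells could not be run, because gated cells outnumber them. Each label is 1 embryo, Fau, Btf3 and Vim average under 2 transcripts per cell under both labels and Tubb5 in sections labelled Wildtype, and intervals between sections cover no difference between animals.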
